A study of Astyanax mexicanus with 14 samples.

Results

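After a short exposure to UV-B, 55 of 19076 genes met a rule for induction in cave larvae of the Mexican tetra (Astyanax mexicanus) with a nearly steady level in surface larvae. They include socs3a, ptgs2b and dok1a of cytokine and receptor signalling, the transporters abcc4, slc34a2b and slc38a2, the translation factor subunit eif2s2, and pck1 of glucose production. The rule used log2 CPM, the log2 of counts per mega-count of normalised library size. A gene was taken when its cave change, the mean of cave UV-B libraries minus the mean of cave controls, was at least 1, its surface change lay within 0.3 of 0, and every cave UV-B library exceeded every cave control. It also needed a mean of at least 50 counts, a mean below 1000 CPM over the controls, and less than 2 log2 units between cave and surface controls. All cave, surface and control differences given for these genes were therefore selected on and are descriptions.

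The study crossed population with treatment in whole larvae at 6 days post-fertilization, and asked how the transcriptional response to UV-B damage differs between populations. The groups were larvae of the Pachón cave morph given 60 s of UV-B (3 libraries, numbered 1, 2 and 4), Pachón cave morph larvae given 60 s of white light as a control (3 libraries, numbered 2, 3 and 4), Surface morph larvae given UV-B (4 libraries) and Surface morph larvae under the white light control (4 libraries). Each library was a separate pool of 4 larvae, collected 90 min after exposure. The labels named no allele, transgene or further agent.

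UV-B forms lesions between neighbouring pyrimidine bases of DNA, and exposed skin and epithelia answer with immediate early transcription factors, stress kinases and inflammatory mediators. Cytokine signals are limited by SOCS proteins, which are themselves induced by those signals, and cyclooxygenase-2 makes the prostaglandins of inflamed tissue. In vertebrates, phosphorylation of the translation factor eIF2 during stress lowers protein synthesis and raises genes for amino acid uptake, while glucose output in fasting larvae runs through the enzyme that pck1 encodes.

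Total counts ran from 7.42 to 15.26 mega-counts per library, so that 3 counts stood for 0.177 to 0.46 CPM. The TMM scaling factors were 0.764 to 0.879 in cave UV-B libraries, 0.952 to 1.11 in cave controls, 0.992 to 1.06 in surface UV-B libraries and 1.11 to 1.19 in surface controls. The scaling moved with treatment and bears on the membership, as given below. A gut list of 7 enterocyte markers was detected in all groups, with a summed level of 1998 to 2403 CPM in cave UV-B libraries, 688.1 to 1082 CPM in cave controls, 1442 to 2394 CPM in surface UV-B libraries and 1012 to 1511 CPM in surface controls. The gene anpepb, chosen by the rule for its cave rise, was among the 7 markers and entered these sums. It averaged 628.9 CPM in cave UV-B libraries, 288.4 CPM in cave controls, 173.3 CPM in surface UV-B libraries and 148.3 CPM in surface controls. Fewer cells of a type and less RNA per cell cannot be told apart in whole larvae.

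Of the 12055 genes that passed the limits on count, level and control difference, 429 had a cave change of at least 1. Most of them moved in surface larvae too: 356 (83.0%) had a surface change of at least 0.3, with a median cave change of 1.40. Another 65 (15.2%) lay within 0.3 of 0 in surface larvae, of which 55 also had no overlap in cave larvae, and 8 fell by at least 0.3. The 55 genes thus lie at the near-flat edge of a continuous distribution. Their cave change ran from 1.00 to 2.47 with a median of 1.16, and 20 of them lay between 1 and 1.1. Their surface change had a median of 0.13, and it was above 0 in 45 of 55 genes (81.8%), against 55.3% of the 7384 genes with a surface change within 0.3 of 0 and 94.9% of the 429 genes with a cave change of at least 1. With library totals as the scaling, the median surface log2 fold change of the 55 was -0.06.

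**Figure D1:**
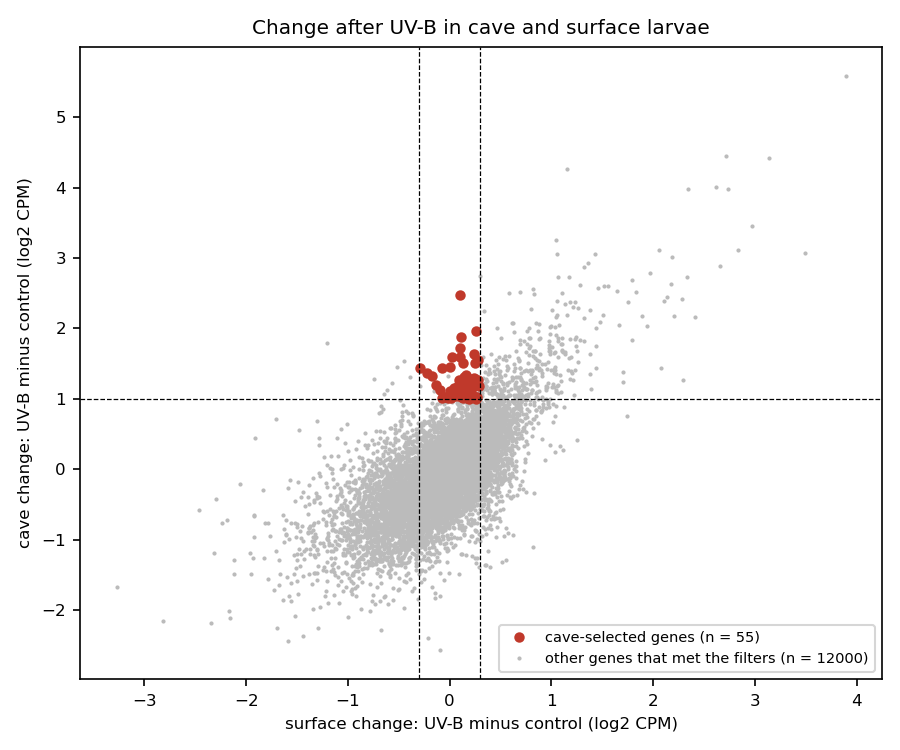
Change after UV-B in cave larvae (y axis) against surface larvae (x axis), both as UV-B minus control in log2 CPM, for the 12055 genes that met the filters. Red points are the 55 chosen genes, dashed lines are the limits of the rule, and the red points lie at the left edge of the genes that were raised in both populations.

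Genes lay close on either side of the limits. Just inside the limit on the cave change were ENSAMXG00000033123 (1.00), ENSAMXG00000041315 (1.00) and si:dkey-10o6.2 (1.00), and just outside were ENSAMXG00000037791 (0.99), ENSAMXG00000014820 (0.99) and ENSAMXG00000029531 (0.98). On the surface change, ENSAMXG00000015836 (0.29), ENSAMXG00000004041 (-0.29) and ENSAMXG00000011639 (0.28) were inside. NPC1L1 (0.30), known for intestinal cholesterol uptake, emg1 (0.30), known for ribosome assembly, and si:ch211-15b10.6 (0.31) were outside. NPC1L1 had a cave change of 2.74, larger than that of any of the 55 genes.

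By edgeR's quasi-likelihood test with Benjamini-Hochberg adjustment over all genes tested, 54 of the 55 were called higher after UV-B in cave larvae, where 12.6% of all genes were called higher. The exception was ENSAMXG00000040989. In surface larvae 0 were called higher and 0 lower, where 13.4% and 15.4% of all genes were called, and 2 had an unadjusted p-value under 0.05. DESeq2 and limma-voom also called 0 in either direction. Both comparisons are those the rule used, and nothing is read from these counts. The difference between the responses, tested as an interaction of population with treatment in a fit of the 14 libraries together, was called for 27 of 55 genes, against 1.41% of all genes called in that direction. The rule used both parts of that difference too. The count was 14 with a replicate block, 16 without cave control 3, 17 without cave UV-B replicate 1 or 2, and 18 with library totals, and it was 36 by DESeq2. Over all genes, calls for the difference in either direction also fell with the block, from 596 to 332. For the other alternatives the calls over all genes are not given, so these moves cannot be read as particular to the 55. For the genes that did not pass, a difference between populations is not shown, and which genes these are depends on the fit. Among the members whose levels are given below, F2RL2, gnpnat1, ENSAMXG00000016230 and ENSAMXG00000011639 did not pass. Their adjusted p-values in that edgeR interaction test were 0.199, 0.148, 0.318 and 0.32.

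In every cave UV-B library the middle member sat at about the same height. The rule set a cave change of at least 1 without overlap and a surface change near 0. Medians near these values therefore follow from the choice. The median over the 55 genes, relative to each gene's own control mean, was 1.19, 1.17 and 1.203 in cave UV-B replicates 1, 2 and 4, against 0.09, -0.14 and 0.17 in cave controls 2, 3 and 4. In surface larvae it was 0.25, -0.01, 0.28 and 0.05 in UV-B replicates 1 to 4, and 0.05, 0.17, 0.00 and -0.21 in controls 1 to 4. Cave control 3 was the lowest cave control in 30 of 55 genes, surface control 4 the lowest surface control in 29, and surface UV-B replicate 2 the lowest of its group in 27. The matching shares of the 12055 genes are not given, and the rule favoured low cave controls, so these counts describe the chosen genes only. Spread between replicates was wider for these genes than for the 12055: the median SD of log2 CPM was 0.21 against 0.17 in cave UV-B libraries, 0.32 against 0.22 in cave controls, 0.31 against 0.17 in surface UV-B libraries and 0.29 against 0.16 in surface controls. The 12055 genes were not matched for count to the 55, whose median mean count was 133. The part of low counts in the wider spread was not tested.

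**Figure D2:**
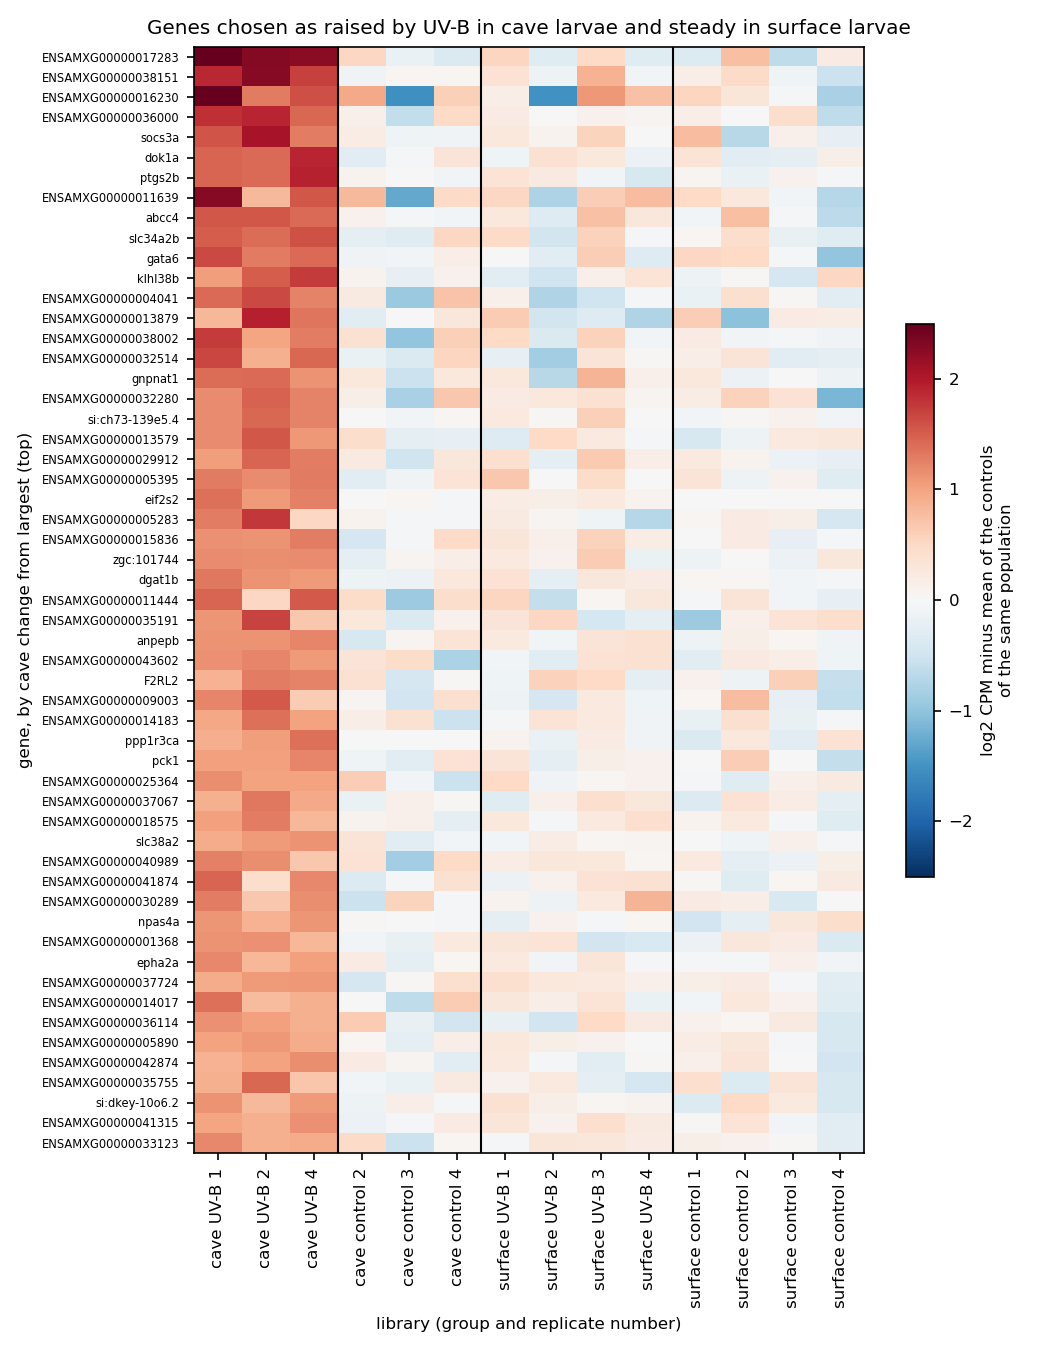
Level of the 55 chosen genes (rows, ordered by cave change) in the 14 libraries (columns), as log2 CPM minus the mean of the controls of the same population. The 3 cave UV-B columns are red throughout, as the rule required. The other columns stay near 0, with scattered blue in cave control 3, surface UV-B 2 and surface control 4.

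Among the signalling genes, socs3a encodes a suppressor of cytokine signalling that acts on receptors of the JAK and STAT pathway. It had 18.7, 26.5 and 15.2 CPM in cave UV-B libraries, against 7.08, 5.72 and 5.82 CPM in cave controls, and 5.12, 4.52, 6.31 and 4.25 CPM in surface UV-B libraries, against 7.31, 2.54, 4.60 and 3.65 CPM in surface controls. Every cave UV-B library was above all other libraries, and the surface groups overlapped. Its cave change was 1.63 and its surface change 0.23.

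ptgs2b encodes a cyclooxygenase of prostaglandin synthesis. Its cave UV-B libraries had 17.4, 17.0 and 24.2 CPM, against 6.67, 6.17 and 5.93 CPM in cave controls, while surface UV-B libraries had 14.4, 13.4, 10.8 and 8.60 CPM, against 11.96, 10.1, 12.3 and 11.1 CPM in surface controls. Cave controls were below all surface libraries and cave UV-B libraries were above them, so that the order of the populations turned over. Its cave change was 1.59 and its surface change 0.03.

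dok1a encodes an adaptor protein that binds activated tyrosine kinases. It had 15.5, 15.0 and 21.2 CPM in cave UV-B libraries, against 4.48, 5.27 and 6.94 CPM in cave controls. Surface UV-B libraries had 5.70, 8.02, 7.46 and 5.55 CPM, against 7.87, 5.07, 5.22 and 6.83 CPM in surface controls. The cave UV-B libraries stood above all others, and the other groups overlapped.

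F2RL2, which in mammals encodes a receptor that thrombin cuts, stood higher on average in cave than in surface controls, with overlap. It had 15.7, 21.0 and 20.3 CPM in cave UV-B libraries, against 11.2, 6.28 and 8.73 CPM in cave controls, and 5.23, 8.49, 8.03 and 4.79 CPM in surface UV-B libraries, against 6.09, 5.17, 8.62 and 3.71 CPM in surface controls. epha2a, a receptor tyrosine kinase for ephrins, averaged 44.0 ± 5.60 CPM in cave UV-B libraries and 21.6 ± 3.41 CPM in cave controls (SD, n = 3 each), and 25.3 ± 3.35 CPM in surface UV-B libraries and 23.4 ± 1.49 CPM in surface controls (SD, n = 4 each).

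A list of cytokine and innate immune genes held 15 identifiers with a name, 4 of them members (ptgs2b, socs3a, F2RL2 and dok1a). All 15 were called higher in cave larvae, with a median log2 fold change of 1.72, against -0.01 over all genes tested. In surface larvae 4 of 14 tested were called higher and 2 lower, with a median of 0.18, against 0.00 over all genes. The difference was called for 10 of the 15. Of the 11 that were no members, 4 were called higher in both populations: the il1b gene ENSAMXG00000035729, of an inflammatory cytokine, myd88, cish and the f2rl1.1 gene ENSAMXG00000038686. Another 5 were called higher in cave larvae and had no call in surface larvae, namely the il1b gene ENSAMXG00000031873, gpr84, the f2rl1.1 gene ENSAMXG00000040817, f2rl1.2 and ptgis, where gpr84 was too low in surface larvae to be tested there. Of these 5, the difference itself was called for that il1b gene, gpr84 and f2rl1.2. The remaining genes, zc3h12a and tnfrsf9a, a receptor of the tumour necrosis factor family, were called higher in cave and lower in surface larvae. Over all genes tested, 12.6% were called higher in cave and 13.4% in surface larvae, and 1.41% for the difference. Names were taken from tables that list genes by significance in these same libraries. Counts over named lists, here and below, therefore run high and are a description.

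The genes eif2s2 and slc38a2 belong to translation and the amino acid stress response. eif2s2 encodes the beta subunit of eIF2, the factor that brings the initiator tRNA to the ribosome. It had 87.4, 70.4 and 80.0 CPM in cave UV-B libraries, against 33.6, 34.4 and 32.4 CPM in cave controls. Surface UV-B libraries had 41.1, 40.2, 42.7 and 38.3 CPM, against 36.5, 36.4, 35.8 and 36.4 CPM in surface controls. It was the 1 gene of the 55 in which all surface UV-B libraries exceeded all surface controls, by a surface change of 0.16, against a cave change of 1.24. Of the 12055 genes, 13.7% had such a separation.

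slc38a2 encodes a sodium-coupled carrier of neutral amino acids. It had 165.8, 181.1 and 188.9 CPM in cave UV-B libraries, against 109.4, 72.7 and 82.6 CPM in cave controls, while surface UV-B libraries had 123.9, 148.5, 134.8 and 136.8 CPM, against 130.9, 120.7, 141.9 and 127.9 CPM in surface controls. Its cave controls lay below and its cave UV-B libraries above every surface library. On the list of amino acid transport and the integrated stress response, all 18 named genes were called higher in cave larvae. Of these, 14 were called higher in surface larvae and 10 for the difference. Over all genes these shares were 12.6%, 13.4% and 1.41%. The median log2 fold change of the 18 was 1.09 in cave and 0.47 in surface larvae. Both cebpb and chac1, a glutathione-degrading enzyme, were called in both populations.

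Genes of digestion, transport and lipid synthesis, given here with gata6, formed a further group, in which cave controls were often the lowest. abcc4, an efflux pump for organic anions, had 27.1, 27.3 and 24.5 CPM in cave UV-B libraries, against 9.79, 8.86 and 8.73 CPM in cave controls. Surface UV-B libraries had 21.1, 14.02, 29.2 and 21.5 CPM, against 16.6, 29.7, 17.1 and 11 CPM in surface controls. The surface replicates of abcc4 spread over more than its cave UV-B libraries did, and cave UV-B libraries fell within the surface range.

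slc34a2b encodes a sodium-dependent phosphate carrier. Its cave UV-B libraries had 117.2, 108.1 and 122.5 CPM, against 35, 33.1 and 58.1 CPM in cave controls, and its surface UV-B libraries had 94.9, 49.8, 101.7 and 66.4 CPM, against 70.7, 93.0, 60.3 and 55.7 CPM in surface controls. gata6, a transcription factor of endoderm and heart, had 15.2, 11.8 and 12.9 CPM in cave UV-B libraries, against 4.38, 4.49 and 5.26 CPM in cave controls, and 8.14, 6.83, 12.6 and 6.53 CPM in surface UV-B libraries, against 11.9, 11.7, 8.06 and 4.06 CPM in surface controls. The cave UV-B libraries of slc34a2b exceeded every surface library, while those of gata6 overlapped the upper end of the surface range.

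anpepb, an aminopeptidase of the intestinal brush border, behaved otherwise, because its cave controls were already above all surface libraries. It had 616.0, 611.6 and 659.0 CPM in cave UV-B libraries, against 212.2, 294.3 and 358.9 CPM in cave controls. Surface UV-B libraries had 175.1, 140.4, 184.3 and 193.6 CPM, against 135.4, 164.2, 154.0 and 139.9 CPM in surface controls. dgat1b, which encodes the last enzyme of triglyceride synthesis, had 50.7, 44.6 and 42.5 CPM in cave UV-B libraries, against 18.7, 18.4 and 24.4 CPM in cave controls, and averaged 25.1 ± 4.27 CPM in surface UV-B libraries and 22.3 ± 0.921 CPM in surface controls (SD, n = 4 each).

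Most other genes of the functional lists that held anpepb, slc34a2b, dgat1b and abcc4 moved in both populations. These lists go by function, and the tissue of each gene was not measured in whole larvae. Of 32 named brush border and digestion genes, 30 were called higher in cave and 29 in surface larvae. Over all genes tested, 12.6% and 13.4% were called higher. For sugar, peptide and ion uptake the counts were 11 of 11 in cave and 8 of 11 in surface larvae, for lipid absorption and storage 24 and 18 of 24, and for sterol and bile metabolism 12 and 9 of 12. Only 1 gene of each of these 4 lists was a member. Of the 7 enterocyte markers, 7 were called higher in cave and 6 in surface larvae, anpepb being the exception in surface larvae. The part of this marker level in the values of anpepb, slc34a2b, abcc4 and dgat1b was not tested. As anpepb is itself 1 of the 7 markers, the summed marker level is in part its own.

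pck1 encodes the phosphoenolpyruvate carboxykinase of glucose production, and it was the member with the most counts. It had 313.6, 311.6 and 355.8 CPM in cave UV-B libraries, against 142.7, 128.1 and 195.9 CPM in cave controls. Surface UV-B libraries had 599.0, 403.1, 530.4 and 515.7 CPM, against 471.3, 730.1, 475.7 and 316.4 CPM in surface controls. Cave larvae stayed below surface larvae in both conditions, by 1.64 log2 units in controls and by 0.64 after UV-B, save that the highest cave UV-B library exceeded the lowest surface control.

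ppp1r3ca, a subunit that directs protein phosphatase 1 to glycogen, had the reverse standing. It had 22.0, 24.1 and 30.7 CPM in cave UV-B libraries, against 11.7, 11.6 and 11.6 CPM in cave controls, and averaged 7.05 ± 0.846 CPM in surface UV-B libraries and 7.17 ± 1.86 CPM in surface controls (SD, n = 4 each). Its cave controls were above all surface libraries. Of 6 named genes of glucose production, 5 were called higher and 1, the glucokinase gck, lower in cave larvae. In surface larvae 3 were called higher and 0 lower. Over all genes, 12.6% were called higher in cave and 13.4% in surface larvae.

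npas4a, a transcription factor that neurons switch on with activity, had 34.2, 29.0 and 33.9 CPM in cave UV-B libraries, against 16.2, 15.9 and 15.1 CPM in cave controls. Surface UV-B libraries had 26.4, 33.9, 30.2 and 32.5 CPM, against 22.4, 26.3, 38.1 and 42.7 CPM in surface controls. Cave UV-B larvae thus held the level that surface larvae had in either condition. Most immediate early genes of the list moved in both populations. Of 23 named genes, npas4a among them, 23 were called higher in cave larvae, 20 in surface larvae and 9 for the difference. Over all genes these shares were 12.6%, 13.4% and 1.41%.

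klhl38b, a Kelch-like gene placed on a list of the muscle atrophy response, had 16.8, 23.5 and 27.6 CPM in cave UV-B libraries, against 8.54, 6.96 and 8.73 CPM in cave controls, and 12.8, 10.97, 16.9 and 19.7 CPM in surface UV-B libraries, against 14.2, 15.9, 11.6 and 22.2 CPM in surface controls. Of the other listed genes, trim63a, a muscle ubiquitin ligase, was called higher in both populations, and fbxo32 was called lower in surface larvae. gnpnat1, an enzyme on the path to the sugar donor of protein glycosylation, averaged 13.2 ± 1.44 CPM in cave UV-B libraries and 5.33 ± 1.61 CPM in cave controls (SD, n = 3 each), and 8.77 ± 3.71 CPM in surface UV-B libraries and 7.46 ± 1.06 CPM in surface controls (SD, n = 4 each).

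**Figure D3:**
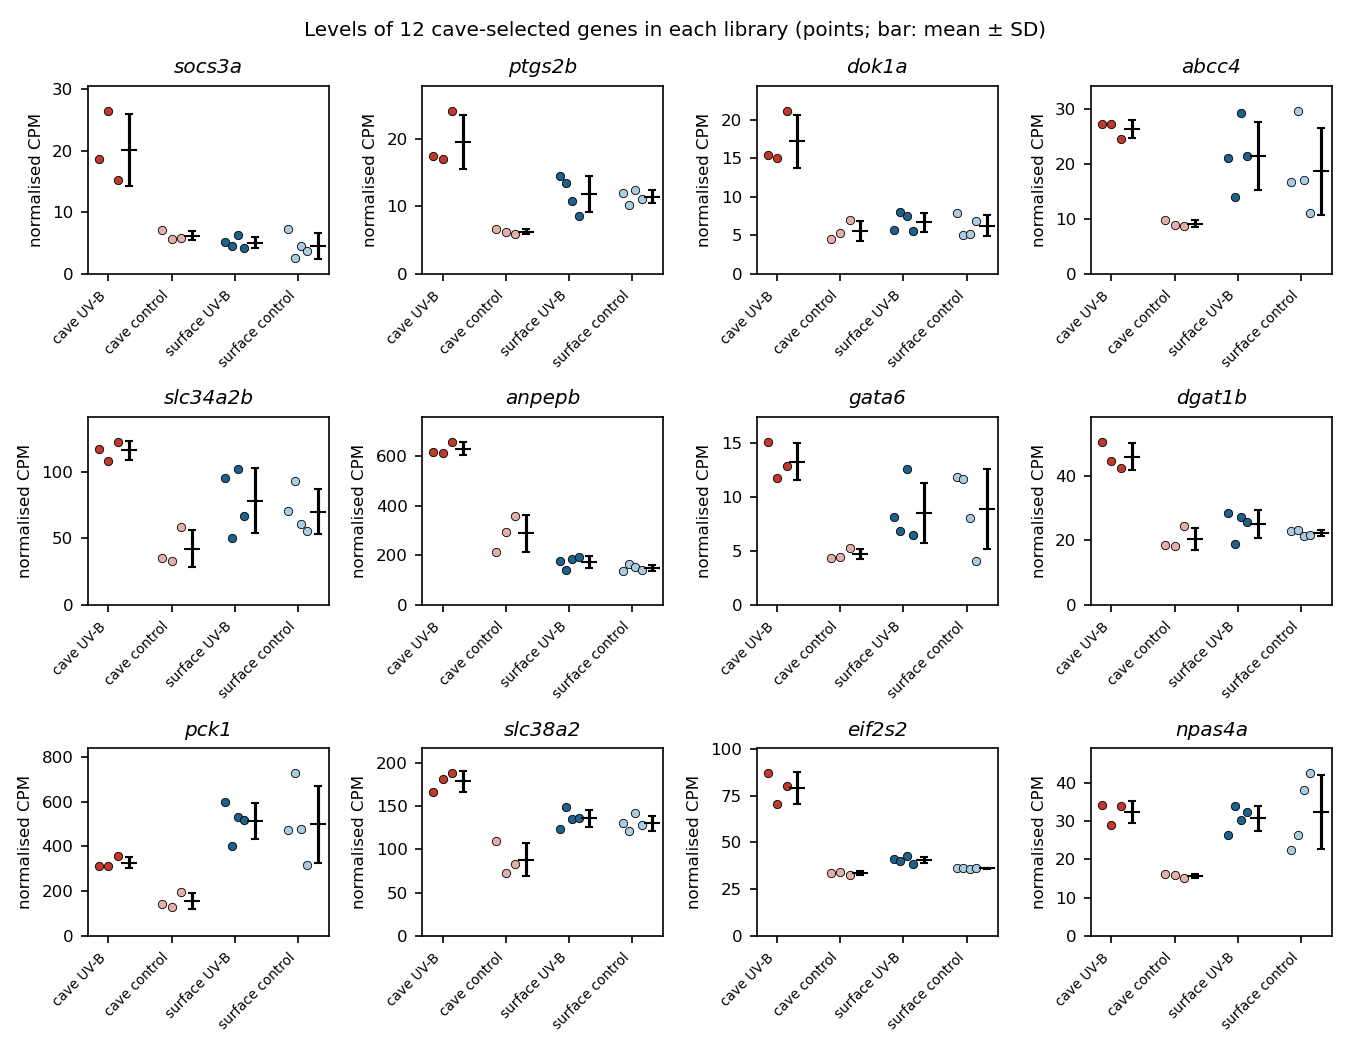
Normalised CPM of 12 of the chosen genes in each library. Points are libraries, with the mean and SD of each group beside them (n = 3 in cave and n = 4 in surface groups). The cave UV-B points lie above the cave control points in every panel, as the rule required, and the surface groups overlap in all panels but eif2s2.

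Of the 10 genes with the largest cave change, 5 had no name in the tables used. ENSAMXG00000017283 led with a cave change of 2.47. It had 28.0, 18.7 and 18.1 CPM in cave UV-B libraries, against 5.31, 3.25 and 2.80 CPM in cave controls, and 4.65, 2.49, 4.48 and 2.504 CPM in surface UV-B libraries, against 2.44, 5.45, 1.95 and 3.65 CPM in surface controls. ENSAMXG00000036000 had a cave change of 1.73, with 17.5, 18.4 and 13.3 CPM in cave UV-B libraries, against 5.21, 3.03 and 6.83 CPM in cave controls, and 5.79 ± 0.390 CPM in surface UV-B libraries and 5.58 ± 1.65 CPM in surface controls (SD, n = 4 each). In both genes the cave UV-B libraries stood above all others.

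ENSAMXG00000038151 showed the other arrangement, with a cave change of 1.96. It had 16.6, 21.6 and 14.7 CPM in cave UV-B libraries, against 4.06, 4.49 and 4.48 CPM in cave controls, and 15.8, 11.3, 22.7 and 11.8 CPM in surface UV-B libraries, against 13.9, 17.3, 11.4 and 8.47 CPM in surface controls. Its cave controls were the only libraries at a low level.

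ENSAMXG00000016230 and ENSAMXG00000011639 had wide replicates. ENSAMXG00000016230 had 587.5, 218.6 and 272.2 CPM in cave UV-B libraries, against 171.4, 30.6 and 134.4 CPM in cave controls, and 78.4, 24.3, 148.7 and 115.5 CPM in surface UV-B libraries, against 101.3, 86.3, 68.7 and 39.8 CPM in surface controls. ENSAMXG00000011639 had 826.2, 300.7 and 502.9 CPM in cave UV-B libraries, against 297.1, 69.9 and 237.5 CPM in cave controls, and 214.8, 87.4, 229.5 and 255.2 CPM in surface UV-B libraries, against 213.0, 179.4, 143.8 and 91.7 CPM in surface controls. Both were low in cave control 3, surface UV-B replicate 2 and surface control 4, and high in cave UV-B replicate 1. For ENSAMXG00000011639 the lowest cave UV-B library exceeded the highest cave control by 0.02 log2 units, the narrowest gap of the 55, and both genes lost their call in cave larvae without cave UV-B replicate 1.

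Where the cave larvae stood before exposure divided the genes. In controls 37 of 55 (67.3%) were lower in cave than in surface larvae, close to the 65.7% of the 429 genes with a cave change of at least 1, and 53.0% of all 12055. The difference between control groups was called higher in cave larvae for 4 genes and lower for 16, against 12.7% and 15.0% of all genes called. After UV-B, 39 of the 55 were called higher in cave than in surface larvae and 3 lower, against 21.7% and 22.6% of all genes. Both comparisons follow from quantities the rule bounded, and the counts are descriptions.

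The 55 genes were sorted by the sign of the population difference, taken between group means. The rule excluded genes higher in cave controls and lower in cave larvae after UV-B, which left 3 arrangements. In 33, cave larvae were lower in controls and higher after UV-B, as for ptgs2b, slc34a2b and slc38a2. abcc4 had these signs too, but was not called higher after UV-B (log2 fold change 0.31). In 18, cave larvae were higher in both, as for anpepb and ppp1r3ca. socs3a and F2RL2 had these signs too, but their cave and surface controls overlapped, and the control difference was not called. In 4, among them pck1, cave larvae were lower in both. Many of the signs in controls thus carry no call, which 4 of the 55 genes had as higher and 16 as lower. Cave UV-B libraries exceeded all surface UV-B libraries without overlap in 34 of 55 genes (61.8%), against 22.6% of the 12055, and lay below all of them in 3, against 25.2%. The difference after UV-B follows from the control difference and both changes, which the rule bounded, so these shares are descriptions. The median difference between cave and surface larvae was 0.75 log2 units after UV-B and -0.32 in controls.

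**Figure D4:**
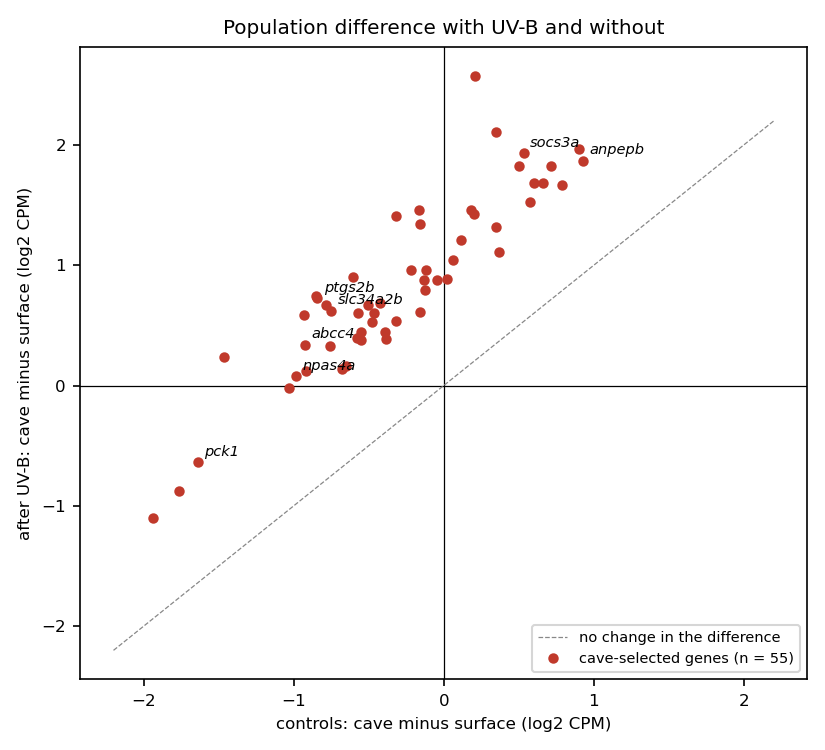
Cave minus surface difference after UV-B (y axis) against the same difference in controls (x axis), in log2 CPM, for the 55 chosen genes. All points lie above the dashed line of no change, as the rule required. The upper left quadrant holds the 33 genes whose group means were lower in cave controls and higher in cave larvae after UV-B, called or not.

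Because the rule chose genes on the same libraries, it was applied again with each library left out, and the left-out library was then measured against the libraries of the opposite treatment. Those opposite libraries and the scaling factors had entered the choice, so the measure is independent of the rule on 1 side only. For cave larvae the choice favoured low controls and high UV-B libraries, which by itself raises the differences below. The 12055 genes had no such choice, so their shares are no fair background. Genes chosen without cave UV-B replicate 1, 2 or 4 (58, 70 and 57 genes) had a median change of 1.13, 0.96 and 1.08 in the replicate left out. That replicate exceeded all cave controls in 57, 60 and 52 of them, or 98.3%, 85.7% and 91.2%. Over the 12055 genes, it exceeded all cave controls in 32.1% to 34.4%. A change of at least 1 recurred in 36, 34 and 34 of the chosen genes, and was found in 3.7% to 4.0% of the 12055. Genes chosen without cave control 2, 3 or 4 (74, 49 and 73 genes) had medians of 0.83, 1.12 and 0.79 against it. A change of at least 1 was found in 27, 29 and 23 of them, and in 3.3% to 4.8% of the 12055.

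The flat surface response was carried over for only part of the genes. Measured in a surface library that had no part in the choice, the median change of the chosen genes lay between 0.08 and 0.43, positive in all 8 cases. It stayed within 0.3 of 0 in 33 of 64, 26 of 47, 26 of 64 and 33 of 58 genes for surface UV-B replicates 1 to 4, and in 32 of 54, 27 of 45, 33 of 64 and 23 of 70 for surface controls 1 to 4. Over the 12055 genes 52.9% to 61.6% lay within that limit. The surface change of single members is therefore known only to within the spread of these replicates.

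**Figure D5:**
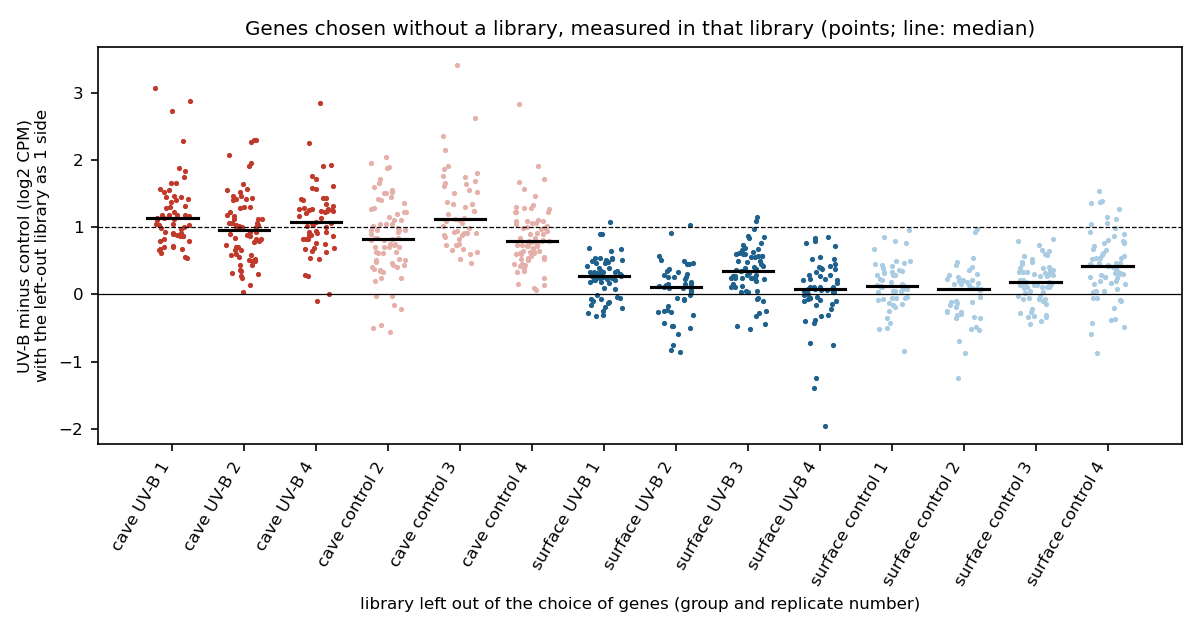
UV-B minus control difference in log2 CPM (y axis) for genes chosen without a library, with that library as 1 side of the difference (x axis, library left out). Points are genes and bars are medians, which lie between 0.79 and 1.13 for cave libraries and between 0.08 and 0.43 for surface libraries.

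Membership depended on single libraries for most genes. When each of the 14 libraries was left out in turn, 8 genes met the rule every time, namely dok1a, ptgs2b, klhl38b, eif2s2, dgat1b, ENSAMXG00000008839, ENSAMXG00000013579 and ENSAMXG00000036000. Another 12 were lost with 1 library, among them gata6 without surface control 4, pck1 without cave control 3, slc34a2b and gnpnat1 without surface UV-B replicate 2, and ppp1r3ca without cave UV-B replicate 4. A further 24 were lost with 2 or 3 libraries and 11 with 4 or more. The number of genes chosen ranged from 45 without surface control 2 to 74 without cave control 2.

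The scaling of libraries mattered more. With library totals in place of TMM factors, the rule chose 26 genes, of which 13 were among the 55. These 13 were ptgs2b, dok1a, socs3a, abcc4, slc34a2b, gata6, klhl38b, gnpnat1 and 5 unnamed genes. That scaling shifted the median log2 fold change of all genes to -0.33 in cave larvae and -0.18 in surface larvae, and that of the 55 genes to 0.85 and -0.06. All 55 kept a positive log2 fold change in cave larvae under it, and 18 did in surface larvae. Relative to all genes, the 55 were raised in cave larvae under both scalings, which largely follows from their choice for a large cave change. The sign of their small surface change turned over in the median.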

How the data were processed

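RNA of 14 pools of whole larvae was sequenced by the authors, who mapped reads with STAR to version 2.0 of the A. mexicanus genome and counted them against the Ensembl 108 annotation. The deposited values were raw counts per gene, not normalised. Strand setting, handling of read pairs and of reads with several places were not given in the sources used here. For most genes the deposited counts were lower than those in a supplementary table of the study. Whether they come from a single strand was not tested. Depth may be understated, and counts of genes that overlap, lie antisense or share sequence with a copy are uncertain. All 19076 rows and all 14 count columns were used.

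Scaling by TMM over the 14 libraries and log2 CPM with a prior count of 2 were computed with edgeR 4.0.16 in R 4.3.3. Tests were edgeR quasi-likelihood fits after filterByExpr, each on the libraries compared and the interaction on all 14, with genes called at a Benjamini-Hochberg adjusted p-value under 0.05. DESeq2 1.42.0, limma-voom (limma 3.58.1), other scalings and filters, a replicate block and fits without each library were the alternatives. The code was tested on simulated data. P-values measure the spread between pools, and counting limits cover counting error only. Chi-square between replicates was 5.01 to 18.5 per degree of freedom, which leaves no duplicate deposit within a group.

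The members, lists and alternatives were chosen with earlier results of these data known. Re-measuring a left-out library was added later. Named in the text are the 10 genes with the largest cave change, the members on functional lists, the genes beside the limits, and examples of genes lost with 1 library. Of the remaining named members, epha2a and gnpnat1 were added after their values were seen. gata6, given beside the digestion and transport genes, was on no functional list and was a gene lost with 1 library. Gene names came from the study's supplementary tables, held here in part, which listed 2384 identifiers and named 2079 of them. They named 20 of the 55 members, not a fair sample, and 35 are given by identifier. Fold changes and p-values in those tables were not used. Promoter motifs were not analysed.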

Additional observations from a re-analysis of the deposited data

Results flagged for a closer look

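Among 50 groups of 4 surface libraries, for 25 named or leading genes, 2 held a library far from the others by Dixon's criterion, and chance flags about 1 in 20 groups. In ENSAMXG00000011639, surface UV-B replicate 2 had 87.4 CPM, against 214.8 to 255.2 CPM in the other surface UV-B libraries. In eif2s2, surface control 3 had 35.8 CPM, against 36.4 to 36.5 CPM in the other surface controls, a gap that is small beside the level. The response differed between populations by the interaction test for 27 of the 55 genes, which the rule itself favoured. Cave groups of 3 libraries were not checked for such single libraries.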

How the results depend on the processing

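Counts of chosen and called genes among the 55 varied with the processing. The rule chose 26 genes with library totals and 54 with the RLE scaling, of which 52 were shared. It chose 81 and 38 genes with a minimum mean of 20 and 100 counts, and 45 to 74 with single libraries left out. The difference in response was called for 27 genes, for 18 with library totals, 36 by DESeq2, 21 by limma-voom and 16 to 34 without single libraries (16 without cave control 3, 17 without cave UV-B replicate 1 or 2). Cave genes called higher numbered 43 to 54 without single libraries and 40 with library totals. Surface genes called higher numbered 0 to 3, with 3 without surface UV-B replicate 2. Higher genes in cave controls numbered 4, with 2 under library totals and 2 to 6 without single libraries, and lower ones 16, with 22 and 11 to 17. After UV-B, 39 were higher, with 26 under library totals and 34 to 40 without single libraries. The calls over all genes in these same fits are not given, so the moves cannot be read as particular to the 55. The cause of these moves was not tested.

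Whether replicate numbers pair the samples was not settled. Correlations of same-numbered deviations ran from -0.05 to 0.23, and those of different-numbered ones from -0.23 to 0.18. In cave larvae the same-numbered pairs had 0.23 and 0.14, and the others -0.23 to 0.13. A replicate block changed the calls for the difference to 14 genes, those higher in cave controls to 2 and those lower to 12, and the cave response to 51. Over all genes it changed the calls for the difference to 332, against 596 without it, and those between controls to 2874, against 4367. Only replicate numbers 2 and 4 occurred in both cave groups. Cave UV-B replicate 1 and cave control 3 therefore added nothing to the blocked cave response. Between controls the block joined cave and surface pools by number alone. The part of these limits in the lost calls was not tested.

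For 25 single genes and 1225 alternative values, 1134 kept direction and call, 6 gained the call and 85 lost it, of which 78 concerned the difference in 11 genes. No direction of a called value turned over. Depth limits the genes under 100 mean counts, 17 of the 55.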
